A study of Mus musculus with 24 samples.

Results

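The Rab small GTPases are a large family of membrane-bound molecular switches, and their transcripts were followed here in RAW264.7 cells, a mouse macrophage-like line. Members were all gene names on the array made of Rab, a number and up to one letter and digit, with a probe that the scanner software placed well above background on each array of some group (3 arrays). Of 56 such names, 44 passed that filter, among 15301 genes tested in all, and they were carried by 76 of the 111 Rab probes. Choosing members by their signal admits a gene that is bright in a single group, but no difference between groups was used.

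The Tbc1d23 construct is labelled as overexpressing that gene, and the control construct expresses chloramphenicol acetyltransferase (CAT), a bacterial enzyme. Cells with the Tbc1d23 construct and cells with the CAT construct were grown in DMEM with 10% FBS and 400 ug/ml G418, and lysed before or at 1, 3 and 5 h of exposure to lipopolysaccharide (LPS) at 20 ng/ml. Each of the 8 line-by-time groups had 3 arrays hybridised with Cy3-labelled cRNA, which gives 24 arrays. There was 1 line per construct, so the construct and any other difference between the lines cannot be told apart. The design text calls the replicates biological, but the sources used here do not say that they came from separate cultures, and the p-values cover the spread between these samples alone, which may be technical.

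Rab proteins bind a membrane and recruit effectors while they hold GTP, and leave it after GTP is hydrolysed. Exchange factors load them with GTP, and GTPase-activating proteins, most of which carry a TBC domain, switch them off. Tbc1d23 carries such a domain. Each Rab marks a compartment, for example the early endosome (Rab5), the late endosome and lysosome (Rab7), the recycling endosome (Rab11) or secretory vesicles (Rab3 and Rab27). In macrophages these compartments serve the uptake and killing of microbes and the release of cytokines. A transcript level says nothing of how much of a Rab protein holds GTP.

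Promoter windows are shown for Rab15, which had the highest line difference, and for the members with the 3 highest and 2 lowest LPS responses in CAT cells at 5 h, so that the response can be read beside the sequence. They come from RefSeq on build GRCm38.p6, run 5′ to 3′ on the gene's strand and cover 250 bases before to 50 bases after an annotated start. Capitals mark a match, on either strand, to 1 of 4 letter patterns that were searched, which do not overlap in these windows. The kB-like pattern was GGG, any 2 bases and TTTCC, and the interferon-response-like one was GAAA, any 2 bases and GAAA. The AP-1-like pattern was TGANTCA and the E-box CACGTG.
Rab15, chr12:76822475-76822774 (minus strand): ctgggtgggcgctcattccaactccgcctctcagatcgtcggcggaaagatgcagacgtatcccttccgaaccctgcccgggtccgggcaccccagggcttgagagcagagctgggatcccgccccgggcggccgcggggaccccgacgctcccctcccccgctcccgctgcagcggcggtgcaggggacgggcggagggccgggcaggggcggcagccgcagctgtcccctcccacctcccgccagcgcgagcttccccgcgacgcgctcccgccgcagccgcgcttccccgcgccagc
Rab15, chr12:76818325-76818624 (minus strand): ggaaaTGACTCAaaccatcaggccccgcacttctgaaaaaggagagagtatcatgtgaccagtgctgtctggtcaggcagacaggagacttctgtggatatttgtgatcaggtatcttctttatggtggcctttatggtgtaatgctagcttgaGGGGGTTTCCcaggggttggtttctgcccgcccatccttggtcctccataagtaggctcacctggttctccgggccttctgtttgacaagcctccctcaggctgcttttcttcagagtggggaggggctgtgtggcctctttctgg
Rab8b, chr9:66919656-66919955 (minus strand): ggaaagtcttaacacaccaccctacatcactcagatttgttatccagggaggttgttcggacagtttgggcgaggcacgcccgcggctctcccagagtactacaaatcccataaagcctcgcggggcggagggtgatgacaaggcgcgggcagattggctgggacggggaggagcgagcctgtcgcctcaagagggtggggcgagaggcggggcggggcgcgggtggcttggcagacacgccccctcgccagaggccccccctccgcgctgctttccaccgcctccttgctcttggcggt
Rab20, chr8:11478591-11478890 (minus strand): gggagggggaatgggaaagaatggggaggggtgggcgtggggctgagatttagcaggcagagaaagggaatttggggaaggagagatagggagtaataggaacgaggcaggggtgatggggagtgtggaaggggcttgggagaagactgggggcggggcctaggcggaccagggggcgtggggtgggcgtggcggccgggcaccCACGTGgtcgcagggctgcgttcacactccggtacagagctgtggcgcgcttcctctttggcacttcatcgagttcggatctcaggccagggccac
Rab32, chr10:10558158-10558457 (minus strand): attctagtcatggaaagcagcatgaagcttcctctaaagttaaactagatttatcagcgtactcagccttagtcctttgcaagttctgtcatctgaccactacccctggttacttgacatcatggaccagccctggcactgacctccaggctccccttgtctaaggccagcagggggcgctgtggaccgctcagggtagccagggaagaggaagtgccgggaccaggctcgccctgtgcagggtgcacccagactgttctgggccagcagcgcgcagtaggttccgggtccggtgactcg
Rab27a, chr9:73063898-73064197 (plus strand): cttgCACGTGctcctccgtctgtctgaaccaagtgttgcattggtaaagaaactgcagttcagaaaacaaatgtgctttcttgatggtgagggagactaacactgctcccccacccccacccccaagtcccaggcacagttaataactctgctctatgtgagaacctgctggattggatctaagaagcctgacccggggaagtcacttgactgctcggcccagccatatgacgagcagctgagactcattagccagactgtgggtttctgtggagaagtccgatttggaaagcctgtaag
Rab3a, chr8:70754453-70754752 (plus strand): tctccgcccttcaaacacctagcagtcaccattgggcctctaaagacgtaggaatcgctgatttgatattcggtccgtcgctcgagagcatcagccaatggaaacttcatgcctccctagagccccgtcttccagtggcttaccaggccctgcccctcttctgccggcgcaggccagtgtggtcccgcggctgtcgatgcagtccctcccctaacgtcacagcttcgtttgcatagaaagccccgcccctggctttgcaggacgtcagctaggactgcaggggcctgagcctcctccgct

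Rab15 had 4 annotated windows, and 1 of them held both a kB-like match, 96 bases before that start, and an AP-1-like match, 245 bases before it. Windows of chromosome 18, where Rab18 lies, were left out of the search. Of the 44 members 40 had windows in it, 52 windows in all. The kB-like pattern stood in windows of 3 members (Rab15, Rab28 and Rab9), against 1.63% of all 32851 windows searched. The AP-1-like pattern stood in those of Rab15 and Rab34 (7.81% of all windows), and the interferon-response-like pattern in that of Rab19 (3.44%). The E-box stood in windows of 6 members, among them Rab20, Rab27a and Rab5a (7.15% of all windows). The windows of Rab8b, Rab32 and Rab3a held none of these letters. A match is a description of the sequence and not a bound site.

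Between 42.1 and 69.6% of an array's probes cleared background, and over genes the replicate arrays had correlations of 0.967 to 0.993. The 4 arrays of 1 line and replicate shared a slide, and Tbc1d23 replicates 1 and 2 lay on slides of another serial run than Tbc1d23 replicate 3 and the CAT slides. Tbc1d23 replicate 3 stood apart: its median absolute log2 difference from the other Tbc1d23 replicates was 0.31 to 0.338, against 0.14 to 0.233 between those. Results are therefore also given within the run that holds both lines, which leaves 1 Tbc1d23 array per time, and without that replicate where this matters. The brightest Tbc1d23 probe did not separate the lines, at a log2 difference of 0.04 ± 0.10 averaged over times (adjusted p = 0.745 in limma), while the second probe was 1.42-fold higher in Tbc1d23 cells (adjusted p = 5.06e-05). Which stretch of Tbc1d23 the construct holds is not stated, so a probe may lie outside it and then checks nothing. All 10 macrophage markers were well above background on the 12 arrays of each line. Their summed signal was 980 to 1810 times the array's 75th percentile in Tbc1d23 cells and 1520 to 2360 times in CAT cells. At 0 h 7 of the 10 had a lower mean in Tbc1d23 cells and 3 a higher one. The mean log2 level of Adgre1 was 3.57 in Tbc1d23 cells and 6.24 in CAT cells, that of Mpeg1 5.28 in Tbc1d23 cells and 7.83 in CAT cells, and that of Cd14 7.52 in Tbc1d23 cells and 6.64 in CAT cells. The summed T cell, B cell, fibroblast and epithelial markers stayed below 1 on this scale on every array, and the fibroblast marker Col1a1 was above background on none. The part of these differences in the Rab results was not tested.

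Levels are log2 signals with the 75th percentile of their array subtracted, so 0 is the 75th percentile of the array, and a level of one gene cannot be set against that of another. Differences are log2 values ± SE of the limma fit, and a call needs a p, adjusted by Benjamini-Hochberg over all 15301 genes, under 0.05. Between the lines, 25 of the 44 members were called at 0 h, where 45.1% of all genes were called. Of these, 16 were higher and 9 lower in Tbc1d23 cells, against 25% and 20.1% of all genes. At 1 h 22 members were called (45.7% of all genes), 13 higher (24.6%) and 9 lower (21.1%). At 3 h 26 were called (50.9%), 20 higher (27.3%) and 6 lower (23.6%), and at 5 h 25 (53.5%), 16 higher (30.1%) and 9 lower (23.4%). Averaged over the 4 times, 33 members were called (70.5% of all genes), 22 higher (38.3%) and 11 lower (32.2%). Members were thus called in 56.8, 50, 59.1 and 56.8% of cases at 0, 1, 3 and 5 h and in 75% on the average, so a call alone says little about the family. These counts take in Rab30 and Rab39, which passed the filter only through groups in which they were high. The median Rab difference averaged over times was 0.28, against 0.07 over all genes.

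The split of these calls into higher and lower depends on the scaling. With arrays centred on their median, which lies near background, the median difference of all genes at 0 h was -0.461, against 0.0916 with the 75th percentile. The calls at 0 h were then 4 higher and 9 lower in Tbc1d23 cells, against 16 and 9. At 1 h they were 4 and 5, against 13 and 9, at 3 h 12 and 4, against 20 and 6, and at 5 h 5 and 8, against 16 and 9. Averaged over times they were 14 and 11. Calls over all genes moved too, at 0 h to 871 higher and 3931 lower, against 3828 and 3077. Within the slide run of both lines 23, 18, 25 and 24 members were called at 0, 1, 3 and 5 h. With the slide as a random block 27 members were called on the average over times, since the 4 arrays of a slide are not independent. The SE and adjusted p given below for averages over times come from the fit without that block, which takes all arrays as independent. With the block the adjusted p of the average was 0.00134 for Rab4a and 0.000315 for Rab23, both still called.

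Rab15, which takes part in endocytic recycling from early endosomes, differed between the lines more than any other member. Its single probe lies at chr12:77898991-77899050 on the minus strand (build mm9 per the file's annotation). In Tbc1d23 cells the 3 arrays gave levels of 4.55, 4.76 and 5.17 at 0 h, 4.11, 4.32 and 4.62 at 1 h, 4.53, 4.65 and 5.03 at 3 h, and 5.10, 5.38 and 5.50 at 5 h. In CAT cells they gave -3.34, -3.28 and -2.56 at 0 h, -3.64, -3.17 and -3.08 at 1 h, -1.58, -0.86 and -0.82 at 3 h, and -1.63, -1.60 and -1.35 at 5 h. Every Tbc1d23 array lay far above every CAT array, and the probe was well above background on all 24 arrays. The difference at 0 h was 7.89 ± 0.24, or 236-fold (adjusted p = 2.61e-14). Averaged over times it was 7.05 ± 0.12, or 133-fold (adjusted p = 5.85e-19), and it was 7.32 within the slide run of both lines.

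**Figure D1:**
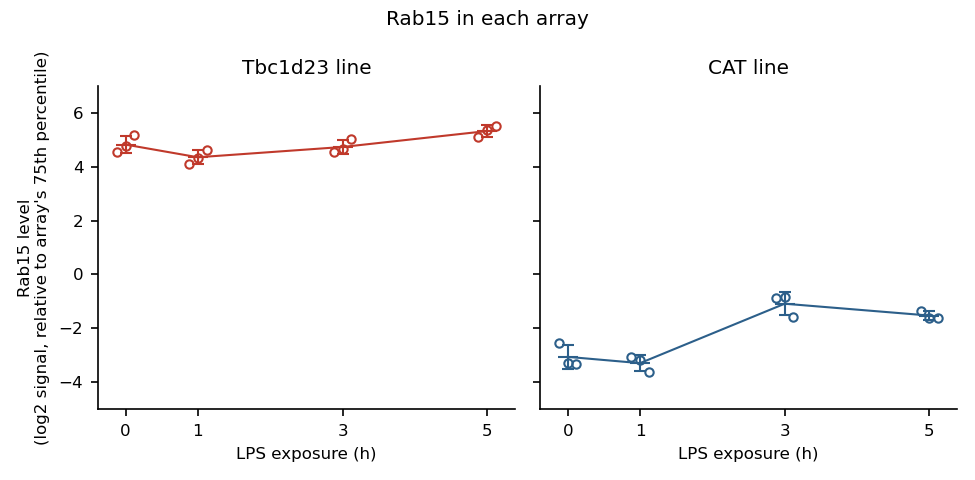
Rab15 level (log2 relative to the array's 75th percentile) against hours of LPS, in Tbc1d23 cells on the left and CAT cells on the right; points are arrays, the line joins the means of 3 arrays and bars are SD. Tbc1d23 arrays lie between 4.11 and 5.50 at all 4 times, and CAT arrays lie between -3.64 and -2.56 at 0 and 1 h and between -1.63 and -0.82 at 3 and 5 h.

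Rab15 also moved with LPS in CAT cells. It rose there by 1.97 ± 0.24 at 3 h over 0 h, which is 3.93-fold (adjusted p = 2.61e-06), and by 1.53 ± 0.24 at 5 h (2.90-fold, adjusted p = 4e-05), and the arrays of these times did not overlap with those of 0 h. In Tbc1d23 cells the differences from 0 h were -0.47, -0.09 and 0.50 at 1, 3 and 5 h (adjusted p = 0.765, 0.98 and 0.343). The 4 times of a line and replicate shared a slide, and with the replicate as a block the 5 h difference in Tbc1d23 cells was called (adjusted p = 0.0155). The LPS responses differed between the lines by -2.06 ± 0.35 at 3 h, Tbc1d23 minus CAT (adjusted p = 0.000234). That difference was not called with median scaling (-1.48, adjusted p = 0.101). At 5 h it was -1.03 ± 0.35 (adjusted p = 0.0372). It was not called with median scaling (-0.74, adjusted p = 0.535), within the slide run of both lines (-1.20) or without Tbc1d23 replicate 3 (adjusted p = 0.0813). The call was also lost without a filter (adjusted p = 0.0637), and with normexp background correction the value was -0.18 (adjusted p = 0.655). That setting adds an offset of 50 to each signal before the log2, which by itself shrinks differences of dim probes.

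Among the other recycling Rabs, the paralogues Rab4a and Rab4b, which both drive fast return of receptors to the surface, went opposite ways between the lines. Rab4b read -0.64, -0.53 and -0.11 in Tbc1d23 cells at 0 h, against 0.78, 0.79 and 0.98 in CAT cells. It was lower in Tbc1d23 cells at each of the 4 times, by 1.21 to 1.48 log2 units, with an average of -1.31 ± 0.08 (adjusted p = 6.65e-11) and no overlap of arrays. Rab4a read -2.27, -2.10 and -1.92 in Tbc1d23 cells at 0 h, against -3.41, -3.37 and -3.34 in CAT cells. It was higher in Tbc1d23 cells at each time, on average by 1.58 ± 0.16 (adjusted p = 7.80e-08). The probe was not well above background on any CAT array at 5 h, where Tbc1d23 cells were at least 3.42-fold higher. The bound sets the Tbc1d23 mean against the mean, per CAT array, of the lowest signal well above background or the probe's own signal, whichever is higher. Within the slide run of both lines the Rab4a differences at 0 h (1.1, adjusted p = 0.169) and 1 h (0.75, adjusted p = 0.351) were not called.

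Rab35, which acts in recycling and in actin changes at the phagocytic cup, was higher in Tbc1d23 cells at each time, by 0.86 ± 0.06 on average (adjusted p = 6.09e-10). Its arrays lay between 6.14 and 6.60 in Tbc1d23 cells and between 5.26 and 5.84 in CAT cells. Rab11a, the main recycling-endosome Rab, was higher by 0.52 on its brightest probe (adjusted p = 1.94e-05), but its 3 probes disagreed. The other probes gave 0.16 and -0.76, both called, and the mean of the probes gave -0.03 (adjusted p = 0.663). Of the 7 recycling Rabs measured, 4 were called higher and 2 lower in Tbc1d23 cells on the average over times, counting Rab11a by its brightest probe, where 38.3% of all genes were called higher and 32.2% lower. With median scaling these were 3 and 2.

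**Figure D2:**
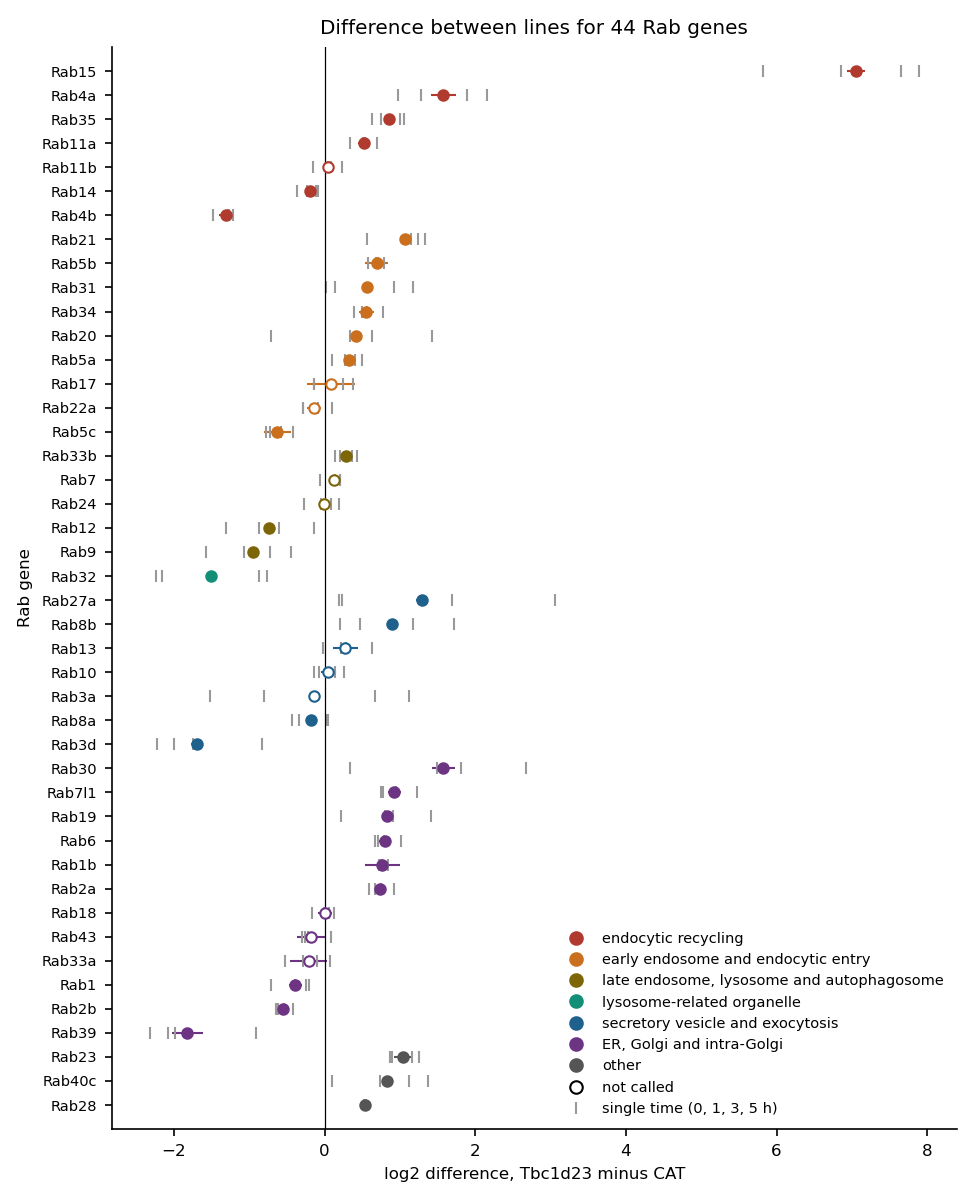
Line difference of each of the 44 members, Tbc1d23 minus CAT, on a log2 scale, grouped by compartment; dots are averages over the 4 times ± SE, open dots were not called, and grey ticks are single times. Rab15 stands at 7.05, and the other members lie between -1.82 (Rab39, below background in Tbc1d23 cells) and 1.58 (Rab4a and Rab30, partly below background in CAT cells).

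Of the 9 Rabs of the early endosome and endocytic entry, 6 were called higher and 1 lower in Tbc1d23 cells on average, against 38.3% and 32.2% of all genes. With median scaling they were 2 and 1, so the higher calls rest on the scaling. Rab21, which guides the endocytosis of integrins, read 3.14, 3.31 and 3.38 in Tbc1d23 cells at 0 h, against 1.78, 1.93 and 2.10 in CAT cells. Its arrays did not overlap at any time and its average difference was 1.07 ± 0.06 (adjusted p = 3.46e-11), with 0.60 on its second probe (adjusted p = 3.43e-06). Rab5a, which drives the fusion of early endosomes, differed by 0.32 (adjusted p = 0.00023), a call lost with median scaling. Rab5c was lower by 0.63 ± 0.18 (adjusted p = 0.00435), but by 0.16 within the slide run of both lines (adjusted p = 0.489).

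Of the 5 late-endosome members 1 was called higher (Rab33b, 0.28) and 2 lower (Rab9 and Rab12) in Tbc1d23 cells, and the Rab33b call was lost within the slide run of both lines (adjusted p = 0.133). On the average over times 38.3% of all genes were called higher and 32.2% lower. Rab9, which returns cargo from late endosomes to the Golgi, read 1.53, 1.68 and 1.79 in Tbc1d23 cells at 0 h, against 2.55, 2.78 and 2.87 in CAT cells. Its average difference was -0.95 ± 0.06 (adjusted p = 2.15e-11), and at 3 h it was -0.44, which within the slide run of both lines was -0.29 (adjusted p = 0.126). Rab7, the Rab of late endosomes and lysosomes, differed by 0.12 on average on its brightest probe (adjusted p = 0.0770), while its second probe was called higher (0.36, adjusted p = 0.000219).

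Rab32, which builds lysosome-related organelles, was lower in Tbc1d23 cells at every time. Its arrays read 3.14, 3.15 and 3.32 in Tbc1d23 cells at 0 h, against 3.62, 4.10 and 4.19 in CAT cells. At 5 h they read 3.32, 3.52 and 3.61 in Tbc1d23 cells, against 5.63, 5.64 and 5.66 in CAT cells. The gap widened with LPS: the difference was -2.16 at 5 h against -0.77 at 0 h, and -1.51 ± 0.07 on average (adjusted p = 4.04e-13).

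Of the 7 secretory Rabs 2 were called higher and 2 lower on average, where 38.3% of all genes were called higher and 32.2% lower. Rab3d, a Rab of secretory granules, read -1.0, -0.96 and -0.43 in Tbc1d23 cells at 0 h, against 1.40, 1.41 and 1.48 in CAT cells. Its difference was -2.23 ± 0.14 at 0 h and -1.70 ± 0.07 on average (adjusted p = 1.83e-13). Its second probe gave -1.90 on average (adjusted p = 0.000189).

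Of the 12 Rabs of the endoplasmic reticulum and Golgi, counted by their brightest probes, 6 were called higher and 3 lower in Tbc1d23 cells, against 38.3% and 32.2% of all genes. They include Rab1b, Rab2a, Rab30 and Rab39, which are limited as given in the text. Rab7l1 (also called Rab29), which acts at the trans-Golgi network, was higher by 0.92 ± 0.08 (adjusted p = 1.41e-08), with arrays from 3.44 to 3.93 in Tbc1d23 cells and from 2.11 to 3.22 in CAT cells. Rab2b, which acts between the endoplasmic reticulum and Golgi, was lower by 0.55 ± 0.06 on its brightest probe (adjusted p = 1.91e-07), and its second probe was not called (-0.08, adjusted p = 0.590). Its paralogue Rab2a was called higher at all 4 times on its brightest probe (0.73 on average), but its second probe was called lower (-0.81), so no direction is given for that gene. Rab1b likewise gave 0.77 on one probe and -0.63 on the other. On the brighter Rab1b probe Tbc1d23 replicate 3 read 4.13 to 4.52 over the times, against 5.40 to 5.98 for Tbc1d23 replicates 1 and 2 and 4.02 to 4.96 for CAT arrays. Within the slide run of both lines that probe differed by -0.13 (adjusted p = 0.440).

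Rab23, a negative regulator of Hedgehog signalling at the primary cilium, was higher in Tbc1d23 cells by 1.05 ± 0.12 on average (adjusted p = 3.14e-07). Its arrays lay between 2.30 and 3.12 in Tbc1d23 cells and between 1.06 and 2.13 in CAT cells. Its other probes gave averages of 0.41 (adjusted p = 0.0220) and 0.38 (adjusted p = 0.000475), but at 0 h they gave 0.03 and -0.06 and were not called. On the brightest probes, 9 members were called higher at each of the 4 times (Rab15, Rab4a, Rab21, Rab23, Rab7l1, Rab35, Rab28, Rab2a and Rab6), where 14.5% of all genes were. The 5 called lower at each time were Rab3d, Rab32, Rab4b, Rab9 and Rab2b, where 10.5% of all genes were. Averages of Rab1 and Rab14, called lower by 0.39 and 0.20, were -0.12 (adjusted p = 0.306) and 0.08 (adjusted p = 0.367) within the slide run of both lines.

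Calls for LPS in CAT cells took in 15.9% of members at 1 h, 50% at 3 h and 43.2% at 5 h. The 5 h share lies near that of all genes. At 1 h 7 members were called, where 7.57% of all genes were, 3 higher (3.64% of all genes) and 4 lower (3.93%). At 3 h 22 were called (34.8% of all genes), 8 higher (16.1%) and 14 lower (18.7%). At 5 h 19 were called (41.6% of all genes), 10 higher (18.3%) and 9 lower (23.3%). With median scaling the calls at 1 h were 1 higher and 0 lower, and with quantile normalization those at 5 h were 8 higher and 12 lower. The 3 times share the 0 h arrays, so their calls are not independent. At 1 or more times 25 members (56.8%) were called, against 47.8% of all genes. On the brightest probes none of them was called higher at 1 time and lower at another. Rab22a was called lower at 2 times on its brightest probe, while 2 of its 3 probes, not the brightest, were called higher at 5 h. These LPS counts take in Rab30 as higher and Rab39 as lower, which passed the filter only through groups in which they were high.

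Rab8b, which carries vesicles to the plasma membrane, and Rab20, which acts in phagosome maturation, rose most in CAT cells at 5 h. Rab8b levels in CAT cells were 0.78, 1.01 and 1.07 at 0 h, 1.35, 1.69 and 1.72 at 1 h, 2.81, 3.19 and 3.34 at 3 h, and 3.06, 3.14 and 3.23 at 5 h. Each time from 1 h on lay above 0 h without overlap, and at 5 h Rab8b was higher by 2.19 ± 0.13, or 4.57-fold (adjusted p = 7.38e-11). Its other probes gave 1.71 (adjusted p = 4.12e-09) and 1.34 (adjusted p = 9.77e-05). Rab20 levels were -1.72, -1.60 and -1.33 at 0 h, -0.14, 0.00 and 0.11 at 1 h, -0.19, -0.17 and -0.16 at 3 h, and 0.51, 0.65 and 0.76 at 5 h. Rab20 was already 1.54 ± 0.16 higher at 1 h (adjusted p = 1.05e-06) and was 2.19 ± 0.16 higher at 5 h (4.56-fold, adjusted p = 1.29e-09).

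Rab32 in CAT cells rose by 1.86 at 3 h (adjusted p = 1.68e-09), and at 5 h by 1.67 ± 0.13 (adjusted p = 5.37e-09). Rab12, which directs receptors to lysosomes and acts in autophagy, read 2.30, 2.31 and 2.39 at 5 h against 1.04, 1.33 and 1.38 at 0 h, a rise of 1.08 ± 0.15 (adjusted p = 5.77e-06). Rab5a rose by 0.58 (adjusted p = 0.00116) and Rab7 by 0.41 (adjusted p = 0.00857) at 5 h. Both calls were lost with median scaling. Rab11a was not called at any time on its brightest probe, but its other probes were called higher at 5 h, by 0.44 (adjusted p = 0.00128) and 0.69 (adjusted p = 0.0296). Of the 9 early-endosome Rabs, 4 were called higher and 1 lower at 5 h, against 18.3% and 23.3% of all genes, and with median scaling 1 higher and 1 lower. The higher calls take in Rab5b, which was not well above background on any CAT array at 0 h.

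The secretory Rabs Rab3a and Rab27a fell most in CAT cells. Rab3a, which regulates calcium-triggered exocytosis, read 1.16, 1.22 and 1.26 in CAT cells at 0 h, 0.41, 0.58 and 0.77 at 1 h, -3.04, -2.85 and -2.57 at 3 h, and -2.15, -2.11 and -1.94 at 5 h. At 3 h it had fallen by 4.04 ± 0.13 on the log2 scale (16.4-fold, adjusted p = 1.05e-14), and at 5 h it stood at -3.28 ± 0.13 (adjusted p = 1.98e-13). Rab27a, which docks secretory lysosomes and exosome-bearing endosomes at the plasma membrane, read -1.25, -1.20 and -1.01 at 0 h, -1.42, -1.34 and -1.28 at 1 h, -3.15, -2.95 and -2.92 at 3 h, and -4.68, -4.61 and -4.35 at 5 h. No CAT array at 5 h was well above background, and the transcript was at least 9.59-fold lower there than at 0 h (adjusted p = 1.10e-12). Its paralogue Rab27b did not pass the filter.

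Rab31, which carries cargo between the trans-Golgi network and endosomes, fell by 1.30 ± 0.12 on the log2 scale at 5 h in CAT cells (adjusted p = 2.58e-08), with 1.62, 1.63 and 1.72 at 5 h against 2.87, 2.91 and 3.10 at 0 h. Rab40c, which has a SOCS box and recruits a ubiquitin ligase, read 2.29, 2.33 and 2.41 at 5 h against 3.44, 3.61 and 3.67 at 0 h, a fall of 1.23 on the log2 scale (adjusted p = 1.76e-07). Rab3d had levels of -0.40, -0.28 and -0.03 at 5 h against 1.40, 1.41 and 1.48 at 0 h (-1.67 ± 0.14, adjusted p = 1.40e-08). The mean of its 2 probes gave -0.70 (adjusted p = 0.222), so this response rests on the brighter probe. Rab4a was at least 1.97-fold lower at 5 h than at 0 h (adjusted p = 0.0109), a call lost without CAT replicate 2 at 5 h. It was also lost with median scaling (adjusted p = 0.0539) and with normexp background correction and its offset of 50 (-0.10, adjusted p = 0.451).

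**Figure D3:**
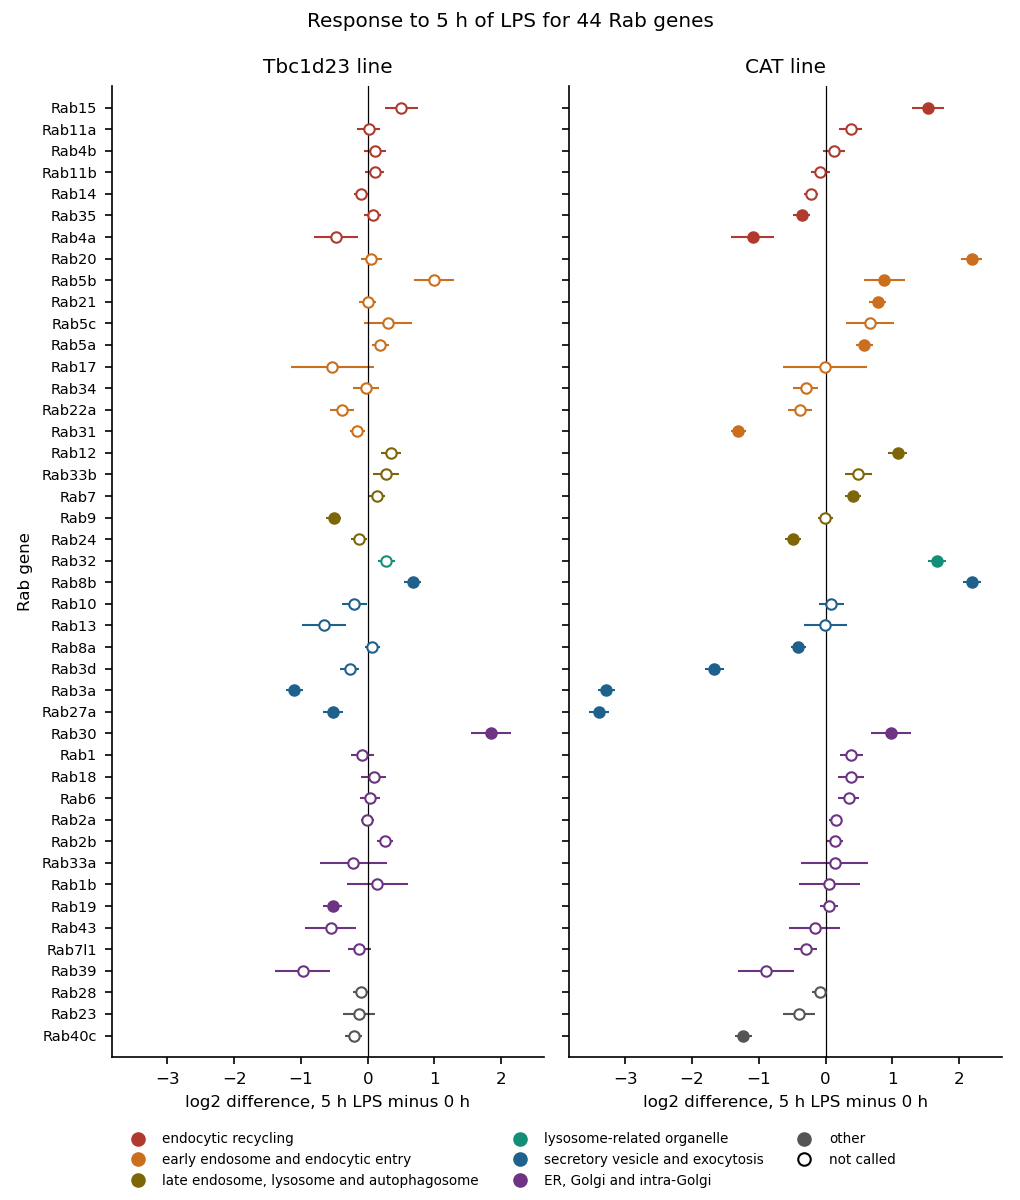
LPS response of the 44 members at 5 h minus 0 h (log2 ± SE), in Tbc1d23 cells on the left and CAT cells on the right, grouped by compartment; open dots were not called. Rab8b and Rab20 stand at 2.19 and Rab3a at -3.28 in CAT cells, and Rab3a stands at -1.1 in Tbc1d23 cells. Some dots rest on signals below background on all 3 arrays at 0 or 5 h and are no measured sizes. They are those of Rab27a, Rab4a and Rab5b in CAT cells, of Rab39 in Tbc1d23 cells and of Rab30 in both lines.

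In Tbc1d23 cells fewer Rab transcripts passed the test after LPS. At 1 h limma called 0 of the 44, where 1.65% of all genes were called (0.837% higher and 0.817% lower), and 3 had an unadjusted p under 0.05. At 3 h 7 were called (6.76% of all genes), 4 higher (3.47%) and 3 lower (3.29%). At 5 h 6 were called (6.33% of all genes), 2 higher (3.02%) and 4 lower (3.31%). The counts at 3 and 5 h take in Rab30 as higher, for which no test is given. With the replicate as a block, which pairs arrays of 1 slide, 12 were called at 3 h and 10 at 5 h (2543 and 2363 of all genes). With median scaling the calls were 4 higher and 0 lower at 3 h and 1 higher and 0 lower at 5 h, and with quantile normalization those at 5 h were 3 higher and 3 lower.

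Rab30, a Golgi Rab, was not well above background on any array at 0 or 1 h in either line. In Tbc1d23 cells it read -1.72, -1.57 and -1.21 at 3 h and -3.10, -2.53 and -2.33 at 5 h, at least 5.92-fold and at least 2.66-fold above 0 h. In CAT cells it read -3.28, -2.94 and -2.74 at 3 h, at least 3.07-fold above 0 h, and was again below background on all arrays at 5 h. At 5 h Tbc1d23 cells were at least 3.40-fold above CAT cells. Rab30 passed the filter only through the groups in which it was high, so these values are a description and carry no test. With normexp background correction, whose offset of 50 shrinks differences of dim probes, the 5 h response in Tbc1d23 cells was 0.37 and the line difference at 5 h 0.26.

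Rab8b in Tbc1d23 cells read 2.58, 2.68 and 2.76 at 0 h, 2.62, 2.80 and 2.86 at 1 h, 3.49, 3.59 and 3.64 at 3 h, and 3.28, 3.34 and 3.41 at 5 h. It rose by 0.90 ± 0.13 at 3 h (adjusted p = 0.000114), and at 5 h by 0.67 ± 0.13 (adjusted p = 0.00249). Rab3a in Tbc1d23 cells read -0.42, -0.30 and -0.19 at 0 h, -0.31, -0.23 and -0.13 at 1 h, -1.81, -1.71 and -1.57 at 3 h, and -1.58, -1.44 and -1.18 at 5 h. It fell by 1.40 at 3 h on the log2 scale (adjusted p = 4.14e-07), and at 5 h by 1.1 (adjusted p = 1.25e-05). Both 5 h responses kept their direction with median scaling, where they were 0.94 for Rab8b (adjusted p = 0.235) and -0.83 for Rab3a (adjusted p = 0.392).

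Rab19, a Golgi Rab, fell by 0.79 at 3 h (adjusted p = 0.000779) and 0.53 at 5 h (adjusted p = 0.0242) on the log2 scale in Tbc1d23 cells. The 5 h call was lost without Tbc1d23 replicate 3 (adjusted p = 0.0543). Rab9 fell by 0.51 at 5 h (adjusted p = 0.00667), to 1.03, 1.06 and 1.39 against 1.53, 1.68 and 1.79 at 0 h. With median scaling the 5 h responses of Rab9 (-0.24) and Rab19 (-0.25) were not called (adjusted p = 0.880 for each). Rab27a read -1.66, -1.59 and -1.22 at 5 h against -1.03, -1.0 and -0.87 at 0 h (-0.52, adjusted p = 0.0466), a call lost with quantile normalization (adjusted p = 0.107) and with 5 other settings besides median scaling. All 9 members called at any time in Tbc1d23 cells (9.57% of all genes), Rab30 among them, were also called in CAT cells. By LPS 19 members were called in neither line. That share was not counted over all genes, of which 47.8% were called in CAT cells and 9.57% in Tbc1d23 cells at 1 or more times.

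The difference between the LPS responses, Tbc1d23 minus CAT, was tested directly. At 1 h 2 members were called, where 2.39% of all genes were: Rab3a was higher (0.627% of all genes) and Rab20 lower (1.76%). With the replicate as a block 5 were called (881 of all genes). At 3 h 11 were called (16.6% of all genes), 6 higher (8.22%) and 5 lower (8.34%). At 5 h 14 were called (23.2% of all genes), 6 higher (12.6%) and 8 lower (10.6%), and 9 within the slide run of both lines. With median scaling the calls were 0 at 1 h, 4 higher and 0 lower at 3 h and 4 higher and 1 lower at 5 h. That scaling moved the median response difference of all genes from near 0 to 0.556 at 3 h and 0.284 at 5 h.

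The members that fell most in CAT cells had the highest response differences. As this difference subtracts the CAT response, part of that order was fixed in advance. Rab27a had response differences of 1.5 at 3 h (adjusted p = 4.06e-05) and 2.87 ± 0.21 at 5 h (adjusted p = 6.85e-09), the second resting on CAT signals below background. At 5 h Tbc1d23 cells had at least 7.62-fold more Rab27a signal than CAT cells (adjusted p = 5.28e-12), while at 0 h the difference was 0.19 and not called. Rab3a had response differences of 2.64 at 3 h (adjusted p = 4.27e-09) and 2.18 ± 0.18 at 5 h (adjusted p = 3.44e-08). Its line difference was 1.12 at 3 h (adjusted p = 7.89e-07) against -1.52 at 0 h (adjusted p = 2.37e-08), so the order of the lines turned. Rab31 and Rab40c, whose line differences at 0 h were 0.02 and 0.10, were higher in Tbc1d23 cells by 1.17 and 1.12 at 5 h on their brightest probes. The second Rab31 probe was already 1.54 higher at 0 h (adjusted p = 5.41e-09), and fell by 0.57 on the log2 scale at 5 h in CAT cells (adjusted p = 0.000615), so the equal start holds for 1 probe. Their response differences at 5 h were 1.15 ± 0.17 (adjusted p = 3.02e-05) and 1.02 ± 0.18 (adjusted p = 0.000265). Rab3d had 1.40 ± 0.20 (adjusted p = 3.22e-05) on the brighter probe and 0.37 on the mean of its probes (adjusted p = 0.774).

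**Figure D4:**
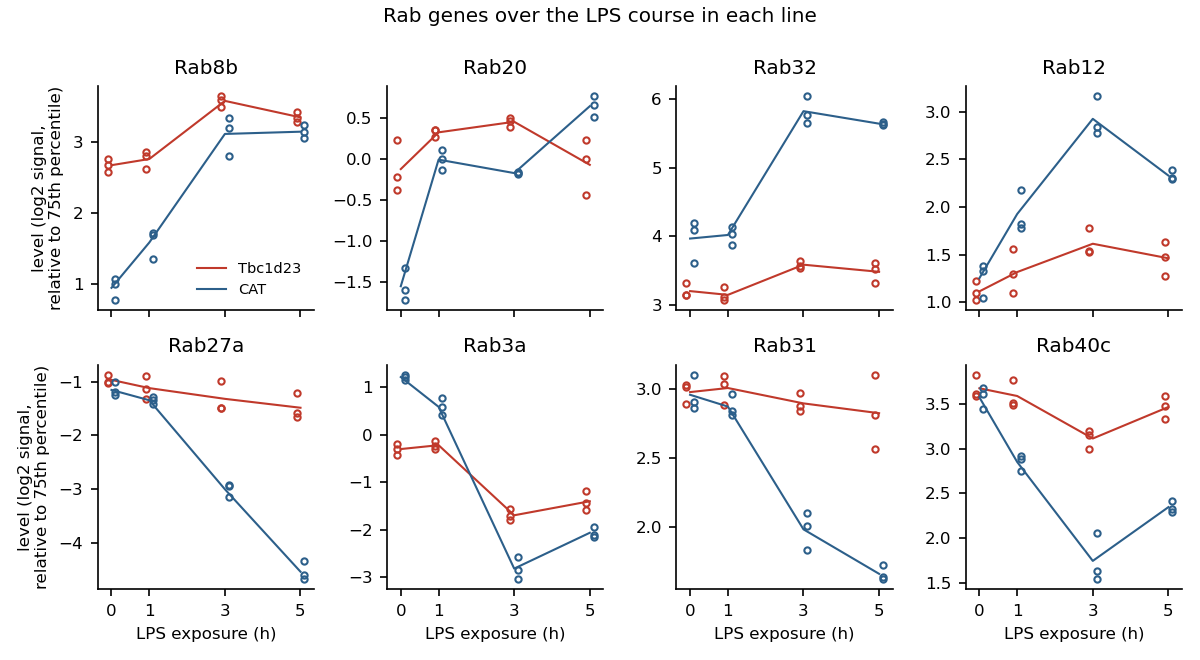
Levels (log2 relative to the array's 75th percentile) of Rab8b, Rab20, Rab32, Rab12, Rab27a, Rab3a, Rab31 and Rab40c against hours of LPS in both lines; circles are arrays and lines join the means of 3 arrays. Rab8b and Rab20 start higher in Tbc1d23 cells at 0 h, and Rab3a starts lower in Tbc1d23 cells and lies above CAT cells at 3 and 5 h.

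Rab8b, Rab20, Rab32 and Rab15, which rose most in CAT cells at 5 h, had the lowest response differences. Part of this order was likewise fixed in advance, since the CAT response is subtracted. Rab30, below background at 0 and 5 h in CAT cells, had a response difference above 0 that was not called. Rab20 in Tbc1d23 cells read -0.38, -0.22 and 0.23 at 0 h, 0.27, 0.35 and 0.35 at 1 h, 0.39, 0.47 and 0.50 at 3 h, and -0.44, 0.00 and 0.23 at 5 h. It was lower in Tbc1d23 cells at 5 h (-0.71, adjusted p = 0.000924) but higher at 0 h, by 1.42 (adjusted p = 7.74e-07). Its response difference was -1.09 at 1 h (adjusted p = 0.00795) and -2.14 ± 0.22 at 5 h (adjusted p = 6.84e-07). Rab8b had line differences of 0.20 at 5 h (adjusted p = 0.207) and 1.72 at 0 h (adjusted p = 4.91e-09), and a response difference of -1.52 ± 0.18 at 5 h (adjusted p = 4.04e-06). Of its other probes 1 was called for the response difference (-1.15, adjusted p = 0.000145) and the other was not (-0.77, adjusted p = 0.105). Rab32 had a response difference of -1.39 ± 0.19 (adjusted p = 1.62e-05) and Rab12 of -0.73 (adjusted p = 0.0136) at 5 h. Rab21 had -0.78 ± 0.18 (adjusted p = 0.00341), which within the slide run of both lines was -0.70 (adjusted p = 0.0530) and on its second probe -0.41 (adjusted p = 0.247). With median scaling the 5 h response differences of Rab40c (1.31, adjusted p = 0.0997), Rab8b (-1.23, adjusted p = 0.0974), Rab32 (-1.1, adjusted p = 0.142) and Rab21 (-0.49, adjusted p = 0.660) were no longer called.

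The line difference, the LPS responses and their difference use the same 0 h arrays, so their values for a member are not independent. The share of all genes called in no comparison was not counted, and 70.5% of all genes were called on the line average. On the brightest probes 7 members were called in no comparison, namely Rab10, Rab11b, Rab13, Rab17, Rab18, Rab33a and Rab43. Other probes of 3 of them were called: those of Rab10 were higher in Tbc1d23 cells on average (0.83 and 0.70) and rose with LPS in CAT cells at 5 h (0.71 and 0.72). Those of Rab11b were lower in Tbc1d23 cells on average (-1.75 for 1 of them), and that of Rab18 rose in CAT cells at 5 h (0.38, adjusted p = 0.0148). Of the 44 members 37 were well above background on every array, and the partly dim ones were Rab13, Rab17, Rab27a, Rab30, Rab39, Rab4a and Rab5b. Rab39, a Golgi and phagosome Rab, was not well above background on any Tbc1d23 array and was at least 1.85-fold lower there than in CAT cells at 0 h. It passed the filter only through CAT cells at 0 and 1 h, so no test is given. The 12 names that did not pass were Rab25, Rab26, Rab27b, Rab36, Rab37, Rab38, Rab39b, Rab3b, Rab3c, Rab40b, Rab6b and Rab9b.

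Regulators and partners of Rabs were read from 3 lists. All 11 genes for Rab chaperones and prenylation, which deliver newly made Rabs to membranes and extract them again, were measured. Of these, 2 were called higher and 6 lower in Tbc1d23 cells on the average over times, with a median of -0.22 against 0.07 over all genes, where 38.3% of all genes were called higher and 32.2% lower. Chml, an escort protein that presents Rabs for prenylation, was lower by 2.16 ± 0.07 (-2.16, adjusted p = 4.42e-15) and Rabif by 0.91 (-0.91, adjusted p = 3.09e-09). Chm, the paralogue of Chml, was higher by 0.47 (adjusted p = 5.52e-06) and Icmt, which methylates prenylated proteins, by 0.43 (adjusted p = 0.00014). After 5 h of LPS in CAT cells Chml stood at -0.87 (adjusted p = 4.72e-05).

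Of 38 exchange factors 37 were measured, with 18 called higher and 11 lower in Tbc1d23 cells, near the 70.5% of all genes called, and a median of 0.19. Dennd2c was higher by 2.05 ± 0.12 (adjusted p = 1.47e-11) and no size is given for Rin1, which was well above background on 10 of 12 Tbc1d23 arrays and 2 of 12 CAT arrays. Dennd2d was at -1.96 (adjusted p = 1.92e-14) and Rin2, an exchange factor of the Rab5 group, at -1.66 (adjusted p = 1.16e-14). In CAT cells 6 were called higher and 14 lower at 5 h of LPS, against 18.3% and 23.3% of all genes. Rabgef1, which activates Rab5, rose by 1.26 (adjusted p = 8.64e-08) and Dennd6b by 1.18 (adjusted p = 0.000825). Rab3il1, a partner of Rab3a, fell by 2.83 on the log2 scale (-2.83, adjusted p = 6.89e-09), and Dennd2c by 3.54 (-3.54, adjusted p = 3.11e-10), with 1 of 3 CAT arrays at 5 h well above background, so that its size is uncertain. In Tbc1d23 cells 1 was called higher and 4 lower at 5 h, against 3.02% and 3.31% of all genes.

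Of 35 effectors 24 were measured, with 10 called higher and 7 lower in Tbc1d23 cells, likewise near the 70.5% of all genes, and a median of 0.08. Plekhm1, which links Rab7 to lysosomal fusion, was higher by 1.46 (adjusted p = 4.11e-13) and Ehbp1 by 1.36 (adjusted p = 4.07e-06). Rilpl2 was at -1.29 (adjusted p = 3.96e-12), and no size is given for Rph3a, a Rab3a effector above background on 3 of 12 Tbc1d23 arrays and 9 of 12 CAT arrays. In CAT cells 5 were called higher and 8 lower at 5 h of LPS, against the same shares of all genes. Rab11fip1, a Rab11 effector, rose by 2.73 ± 0.16 there (adjusted p = 9.25e-11) and Rilpl2 by 1.62 (adjusted p = 8.23e-09). Plekhm1 was at -2.28 (adjusted p = 4.27e-11) and Appl2, a Rab5 effector, at -2.23 (adjusted p = 9.10e-11). In Tbc1d23 cells Rab11fip1 rose by 1.41 (adjusted p = 1.26e-05) and Plekhm1 was at -1.47 (adjusted p = 3.39e-07).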

How the data were processed

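RNA of 24 samples, 3 arrays in each of 8 groups of line and LPS time, was hybridised to one-colour Agilent arrays. Spot intensity was read from the deposited scanner files, which per the file headers were written by version 10.7.1.1 of Agilent Feature Extraction, and its processed signal, already background-subtracted, was used. The authors also deposited values per probe that appear to be log2 (found from the values), with the median 3.873 in every column. They served as an alternative only, since their centring and software settings are not given in the sources used here. RMA and Partek also appear in the submitters' processing notes, with no role stated.

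Spots of a probe were averaged, without control and outlier spots. Values are log2 of the signal minus the array's 75th percentile. A probe was kept if some group had it well above background on each of its 3 arrays, and the brightest kept probe stood for its gene name. Names and probe positions (mm9) are those of the files. A model of the 8 group means on all 24 arrays, with 1 shared spread, was fitted in limma 3.58.1 (functions lmFit and eBayes) under R 4.3.3 with data.table version 1.17.8, and p-values were adjusted by Benjamini-Hochberg over all 15301 genes within a comparison. The fit was tested on simulated data with independent noise per array and changes between the lines at 0 h only. That test does not cover shared slides, LPS responses or averages over times. Differences between groups of 3 arrays rest on limma's model, and the number of arrays limits the precision.

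Arrays of 1 slide deviated together (correlation of deviations from group means 0.171 to 0.82 over 36 pairs of times), so the replicate number pairs times within a line. The same number across lines did not (-0.4 to -0.0679 over 12 pairs). Alternatives covered scaling, background correction, filters, the choice of probe, slide and run blocks, and each array left out.

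Members with full values are Rab15, the 6 highest and 6 lowest line differences called alike at all 4 times, the 6 highest and 6 lowest LPS responses at 5 h in each line, the 5 highest and 5 lowest response differences at 5 h, and genes whose probes disagree. For the lists of regulators, the 2 highest and 2 lowest are named, except for a value that is not reported here. Members, lists and rules were chosen with earlier results of these data known. Promoter windows come from RefSeq and were matched by symbol.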

Additional observations from a re-analysis of the deposited data

Results flagged for a closer look

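The LPS response of a Rab transcript differed between the lines, by the direct test in limma, for 2 members at 1 h, 11 at 3 h and 14 at 5 h. At 5 h the response of Tbc1d23 cells minus that of CAT cells was 2.87 log2 units for Rab27a, 2.18 for Rab3a, 1.40 for Rab3d, 1.15 for Rab31 and 1.02 for Rab40c. It was -2.14 for Rab20, -1.52 for Rab8b, -1.39 for Rab32, -1.03 for Rab15 and -0.78 for Rab21. The Rab27a value rests on CAT signals below background at 5 h, and Rab21 had -0.41 on its second probe (adjusted p = 0.247). The Rab15 value was -0.18 with normexp background correction and its offset of 50, and not called. Those calls share the arrays of 0 h and the slides of each line.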

How the results depend on the processing

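Scaling on the array median lowered the number of Rab members called. Between the lines it gave 13, 9, 16 and 13 members at 0, 1, 3 and 5 h. For LPS it gave 4 and 1 in Tbc1d23 cells at 3 and 5 h, and 1, 13 and 10 in CAT cells at 1, 3 and 5 h. For the response differences it gave 0, 4 and 5 at 1, 3 and 5 h. With the slide as a random block 12 and 11 members were called in Tbc1d23 cells at 3 and 5 h and 6 for the response difference at 1 h, and the 5 h response of Rab15 in Tbc1d23 cells was called (0.50, adjusted p = 0.0211). With the replicate block, which pairs the times of a line, these were 12, 10 and 5, and that Rab15 response was 0.50 (adjusted p = 0.0155). Calls over all genes rose likewise in these 3 comparisons. They were 2572, 2367 and 924 with the random block and 2543, 2363 and 881 with the replicate block, against 1035, 969 and 365. The replicate block moved no other Rab count by more than 1.5 times, and the block of the number shared across lines moved none. The response difference at 1 h gave 4 members with quantile normalization and with the deposited values, 1 without a filter, 1 with a trended robust prior, 1 without Tbc1d23 replicate 3 and 0 within the slide run of both lines. That run gave 9 members at 5 h. The filter on all arrays, the mean of probes and the fit of every probe moved no count by more than 1.5 times.

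With 1 array left out, the line counts were 24 to 26, 20 to 23, 23 to 29 and 24 to 26 at 0, 1, 3 and 5 h, and 33 to 34 on average. LPS counts were 0 to 0, 5 to 8 and 4 to 7 in Tbc1d23 cells and 6 to 7, 19 to 23 and 17 to 21 in CAT cells at 1, 3 and 5 h. Response differences gave 1 to 3, 9 to 11 and 10 to 14. Rab15 ranged from 6.99 to 7.11 for the line average, from 0.37 to 0.67 for LPS at 5 h in Tbc1d23 cells and from 1.39 to 1.79 in CAT cells.

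Of the 37 results for named members, none turned direction. Of their 467 values under other settings 436 kept the call, and 12 of the 31 lost calls came with median scaling. Of 888 values with 1 array left out 856 kept it. Leaving out an array of a group outside a comparison leaves the difference as it was, and only its p can move. The same holds for the random and replicate blocks, the trended prior and the fit of every probe. The kept directions were thus partly fixed in advance. The 5 results that lost the call with 1 array left out were Rab15 for the response difference at 5 h, Rab19 and Rab27a in Tbc1d23 cells, and Rab4a and Rab30 in CAT cells at 5 h. The planned normexp correction adds an offset of 50 before the log2, which shrinks differences of dim probes. It could not be fitted on 6 arrays and was refitted there without the lowest 0.1% of spots. This refit and the fit without Tbc1d23 replicate 3 were chosen after seeing the data. The cause of these changes was not tested. Dim probes carry the least information, and 7 of the 44 members were below background on some arrays.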

Other observations

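The gene that the current annotation calls Rab7b carries another name in the files and was therefore not among the members. Its mean level was 2.93, 2.82, 2.40 and 2.83 in Tbc1d23 cells at 0, 1, 3 and 5 h, and 3.04, 2.70, 2.07 and 3.35 in CAT cells. Rab42, also under another name there, was not well above background on any array.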
